A study of Rattus norvegicus with 27 samples.

Results

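Myelin is rich in galactolipids, and 9 genes whose enzymes build these lipids and the ceramide beneath them were followed in cultured rat Schwann cells. They are Ugt8, Gal3st1, Fa2h, Cers2, Degs1, Sptlc2, Ugcg, Elovl1 and Elovl6, chosen by gene name for their place in the pathway. Earlier results of these data were known when they were chosen. All 9 were among the 17315 rows of the deposited cell mRNA table, and all 9 were among the 10372 genes with enough counts to be tested. Schwann cells are the glia that wrap peripheral axons, and these were commercial primary rat cells used at low passage, without axons. There were 3 stages with 3 libraries each. Undifferentiated cells were kept without dibutyryl cyclic AMP (db-cAMP), a cell-permeable form of the messenger cyclic AMP, and the labels do not state the rest of their medium. Differentiated cells were starved overnight and then held for 72 h in DMEM with 1% exosome-depleted serum and 1 mM db-cAMP. Dedifferentiated cells received the same 72 h of db-cAMP and then a further 72 h without it, in the fuller medium, described in the labels as holding 10% exosome-depleted serum, forskolin and neuregulin. Every medium described held penicillin-streptomycin, and stage, medium and culture time changed together. The replicates are called biological, but no source used here says that they came from separate animals or cultures, so the p-values measure the spread between these libraries, which may be technical.

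Sphingolipid synthesis begins when serine palmitoyltransferase, of which Sptlc2 is a catalytic subunit, joins serine to palmitoyl-CoA. Ceramide synthases such as Cers2 add a fatty acid, the desaturase Degs1 completes ceramide, and elongases such as Elovl1 and Elovl6 lengthen the fatty acids used. Ceramide then goes several ways: Ugt8 adds galactose to give galactosylceramide, which Gal3st1 sulfates to sulfatide, while Ugcg adds glucose and opens the path to gangliosides. Fa2h hydroxylates the fatty acid. Myelin is known for galactosylceramide and sulfatide with very long and hydroxylated fatty acids, and mice without Ugt8 make myelin that works poorly.

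The stretch of 250 bases before the gene start is shown for the galactolipid enzymes, because Ugt8, Gal3st1 and Fa2h act on the lipids most typical of myelin and rose on differentiation, and because the stimulus was cyclic AMP. The sequences are RefSeq's on assembly GRCr8, read 5′ to 3′ on the gene's strand, and the build behind the count table is not given in the sources used here. Capitals mark the core of the cyclic AMP response element, TGACG, or the CCAAT box, on either strand.
Ugt8, chr2:217007168-217007417, minus strand: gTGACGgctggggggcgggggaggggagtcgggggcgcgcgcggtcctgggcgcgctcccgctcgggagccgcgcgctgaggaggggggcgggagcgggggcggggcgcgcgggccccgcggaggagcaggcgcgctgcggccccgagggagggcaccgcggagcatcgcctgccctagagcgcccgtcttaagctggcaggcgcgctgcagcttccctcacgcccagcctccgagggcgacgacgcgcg
Gal3st1, chr14:83094135-83094384, plus strand: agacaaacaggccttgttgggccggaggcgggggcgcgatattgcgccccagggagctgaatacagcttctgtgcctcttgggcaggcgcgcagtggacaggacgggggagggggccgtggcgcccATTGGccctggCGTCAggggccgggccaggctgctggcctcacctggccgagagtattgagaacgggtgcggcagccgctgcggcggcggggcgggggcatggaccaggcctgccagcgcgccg
Fa2h, chr19:56273481-56273730, minus strand: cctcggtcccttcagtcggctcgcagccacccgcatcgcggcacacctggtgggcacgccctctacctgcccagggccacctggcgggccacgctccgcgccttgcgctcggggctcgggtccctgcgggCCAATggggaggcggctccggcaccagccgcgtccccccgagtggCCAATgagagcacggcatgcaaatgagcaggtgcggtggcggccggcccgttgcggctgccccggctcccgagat
The Ugt8 stretch held 1 TGACG at its far end, 249 to 245 bases before the start, and was 81.2% G and C. The Gal3st1 stretch held TGACG on the opposite strand 113 to 109 bases before the start, beside a reversed CCAAT at 124 to 120 bases. The Fa2h stretch held CCAAT at 120 to 116 and at 75 to 71 bases before the start and no TGACG. A promoter stretch was available for 7 of the 9 members, the others being Ugcg and Elovl6.

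Both strands of those 7 stretches were searched for 7 motifs, and the same windows of 33469 promoters gave the background. TGACG was in 3 of 7 members (Ugt8, Gal3st1 and Sptlc2) and in 18.2% of all promoters. CCAAT was in 4 of 7 (Gal3st1, Fa2h, Cers2 and Sptlc2) and in 34.0%. Sptlc2, whose mRNA did not pass the test on differentiation, held TGACG once and CCAAT 5 times. None of the 7 held the full palindrome TGACGTCA (1.59% of promoters), which contains TGACG, nor ACAAT, the core read by SOX factors (30.0%), GTGGGCG, that of EGR factors (6.27%), the sterol element TCACNCCAC (0.974%) or TATAAA (12.9%). GC content of the member stretches ran from 54.0% to 81.2%, against a median of 51.2% over all promoters. The background was not matched for GC content, so these shares do not measure enrichment or depletion of a motif. A match is a run of letters and no evidence of binding.

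The 9 libraries held 10058735 to 16212278 estimated counts, and 3 counts, the smallest number taken as a level, were worth 0.185 to 0.298 CPM. CPM here is a gene's count scaled to a column total of 1000000 and is not corrected for gene length. Replicate 3 of each stage came from another sequencing project than replicates 1 and 2. Within a stage, pairs that included replicate 1 differed by 21.3 to 26.6 in chi-square per degree of freedom and the pairs of replicates 2 and 3 by 5.22 to 14.3, so replicate 1 stood apart at every stage and no library was a copy of another. Of 8 Schwann cell marker genes, 7 were in the table and all 7 exceeded 1 CPM on average at every stage, Sox10 among them. Their summed level was 7970 to 9230 CPM in undifferentiated, 9200 to 11700 in differentiated and 18300 to 21300 in dedifferentiated libraries. Of 6 fibroblast markers Col1a2 alone exceeded 1 CPM on average, with stage means of 8980, 7250 and 6450 CPM in that order, while Lum was at 0 in every library. Macrophage markers summed to at most 5.09 CPM, with Aif1 at 0 everywhere, endothelial markers to at most 1.11 CPM and neuronal markers to at most 0.368 CPM. The part of these marker levels in the results was not tested, and in bulk RNA fewer cells of a type and less RNA per cell cannot be told apart.

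Differentiated cells were compared with undifferentiated cells to measure the change after 72 h of db-cAMP. Overnight starvation and a medium with 1% serum came with it, and their parts cannot be told apart. Of the 9 members, 7 rose, Ugcg fell and Sptlc2 did not pass the test (edgeR quasi-likelihood test, Benjamini-Hochberg adjusted p under 0.05 over 10372 genes). By the same test 59.6% of all genes were called, 31.7% higher and 27.9% lower. The median log2 change was 1.44 over the members and 0.05 over all genes tested. For 8 of 9 members the differentiated libraries all lay on one side of the undifferentiated ones, as they did for 66.3% of all genes.

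**Figure D1:**
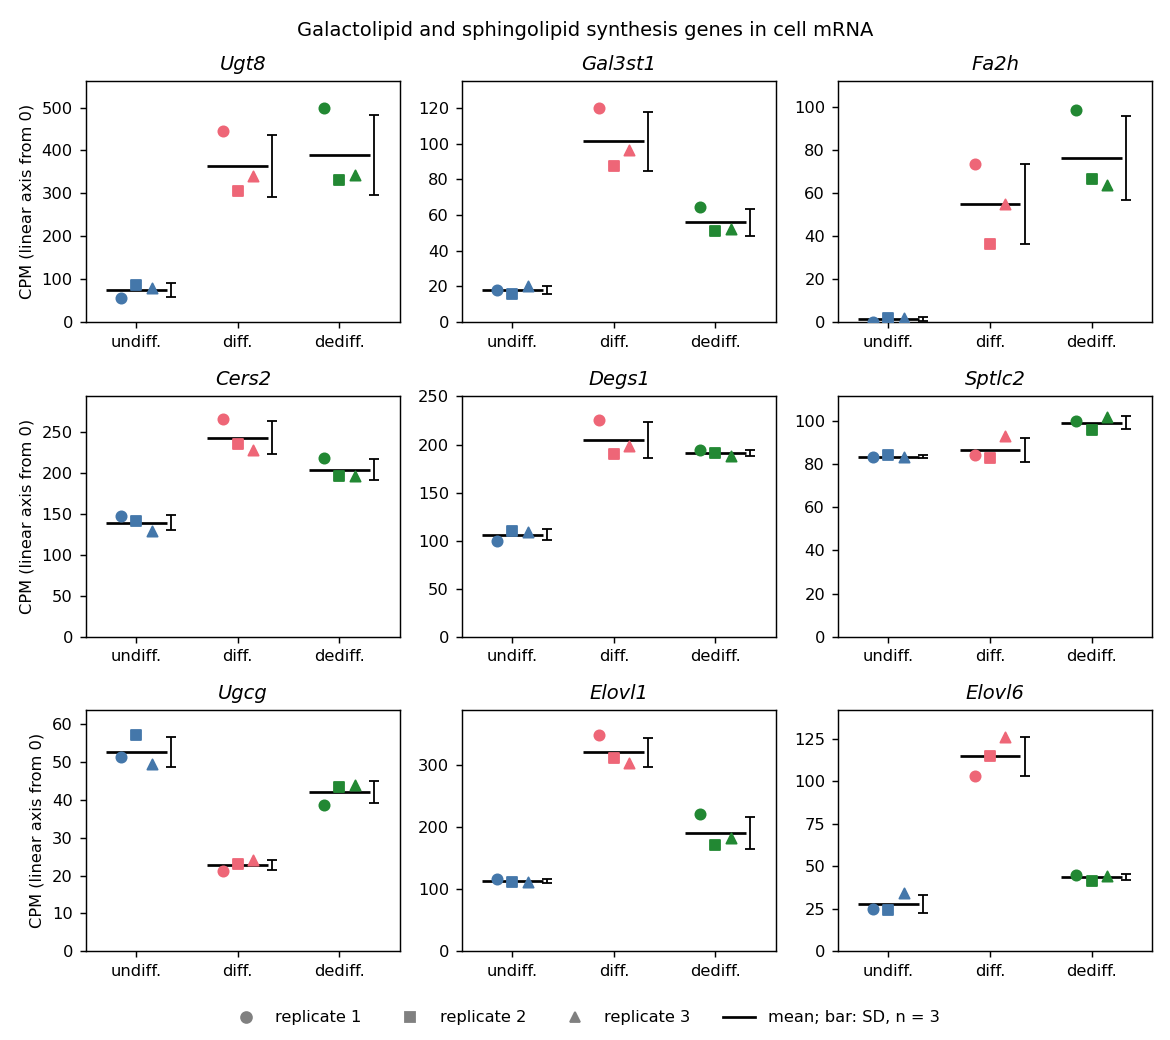
Level of each of the 9 genes in CPM (linear axis from 0) in the 3 undifferentiated, 3 differentiated and 3 dedifferentiated libraries; symbols are replicates 1 to 3, the line is the stage mean and the bar 1 SD on either side. Ugt8 and Fa2h stay high in dedifferentiated cells, Gal3st1, Elovl1 and Elovl6 sit between the other 2 stages, and Ugcg is lowest in differentiated cells.

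Ugt8, the enzyme that makes galactosylceramide, stood at 55.6, 87.4 and 80.2 CPM in undifferentiated replicates 1 to 3, at 445, 306 and 341 CPM in differentiated ones, and at 498, 331 and 342 CPM in dedifferentiated ones. All 6 libraries of the later stages lay above all 3 undifferentiated ones, and the later stages overlapped each other. Its mean rose from 74.4 ± 16.7 to 364 ± 72.4 CPM (SD, n = 3) on differentiation, or 4.71-fold (log2 change 2.24, SE 0.22, edgeR adjusted p = 7.64e-06). Of all genes tested, 5.71% rose by more. In dedifferentiated cells the mean was 391 ± 93.5 CPM (SD, n = 3), a log2 difference of 0.11 from differentiated cells (95% interval -0.34 to 0.57, edgeR adjusted p = 0.675), so a rise or fall within that interval could not be told from none. Against undifferentiated cells the dedifferentiated level was 5.10-fold higher (log2 change 2.35, edgeR adjusted p = 2.33e-05). Replicate 1 was the lowest undifferentiated library and the highest at both later stages; without replicate 1 of every stage the log2 rise on differentiation was 1.86 (edgeR adjusted p = 9.47e-09).

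Gal3st1, the sulfotransferase that acts on the product of Ugt8, was measured at 18.2, 15.8 and 20.5 CPM in undifferentiated, 120, 87.5 and 96.5 CPM in differentiated and 64.7, 51.0 and 52.0 CPM in dedifferentiated replicates 1 to 3. The 3 stages did not overlap, with dedifferentiated cells in between. The log2 change was 2.42 on differentiation (SE 0.16, edgeR adjusted p = 3.63e-07), a 5.34-fold rise. After withdrawal of db-cAMP it fell (log2 change -0.85, SE 0.15, edgeR adjusted p = 0.000828), and it remained 2.97-fold above undifferentiated cells (edgeR adjusted p = 3.64e-05).

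Fa2h, the fatty acid hydroxylase, was low in undifferentiated cells, at 0.161, 1.92 and 2.09 CPM from 2, 20 and 32 counts, of which the first lies under the floor of 3 counts. Differentiated replicates 1 to 3 reached 73.5, 36.3 and 54.7 CPM and dedifferentiated ones 98.7, 66.5 and 63.6 CPM. Every later library lay above every undifferentiated one, and the later stages overlapped each other. The log2 change on differentiation was 5.22 (SE 0.46, edgeR adjusted p = 4.07e-06), and 1.3% of all genes tested rose by more. Because the baseline rests on few counts the size of this rise is uncertain: its 95% interval ran from 4.20 to 6.25, and without replicate 1 of every stage, whose undifferentiated library held the 2 counts, the log2 change was 4.41 (edgeR adjusted p = 4.03e-08). Dedifferentiated cells lay 0.49 above differentiated cells on the log2 scale (95% interval -0.22 to 1.19, edgeR adjusted p = 0.237), a difference that passed the test without replicate 1 of every stage (log2 change 0.54, edgeR adjusted p = 0.0151).

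The genes of the ceramide backbone changed less. Sptlc2, a catalytic subunit of the first enzyme of the path, was level at 83.1, 84.1 and 83.2 CPM in undifferentiated and 84.2, 82.6 and 92.8 CPM in differentiated replicates 1 to 3. Those stages overlapped (log2 change -0.01, 95% interval -0.17 to 0.15, edgeR adjusted p = 0.921). Dedifferentiated libraries held 99.9, 95.8 and 102 CPM, above all the others. Their log2 difference from differentiated cells was 0.21 (SE 0.07, edgeR adjusted p = 0.0367) but lost its call in 9 of 20 alternatives, among them leaving out any 1 dedifferentiated library or differentiated replicate 1 or 2, with adjusted p up to 0.151.

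Degs1, the desaturase that turns dihydroceramide into ceramide, rose from 100, 110 and 109 CPM in undifferentiated to 226, 190 and 198 CPM in differentiated replicates. The stages did not overlap (log2 change 0.88, SE 0.09, edgeR adjusted p = 7.64e-06). In dedifferentiated cells it stood at 194, 191 and 188 CPM, within or just below the differentiated range, with a log2 difference of -0.09 (95% interval -0.27 to 0.10, edgeR adjusted p = 0.421). Cers2, the ceramide synthase that prefers very long fatty acids, rose from 147, 141 and 129 CPM in undifferentiated to 266, 236 and 228 CPM in differentiated replicates. The log2 change was 0.75 (SE 0.10, edgeR adjusted p = 8.36e-05). Dedifferentiated libraries held 219, 197 and 196 CPM, all below the differentiated ones, yet the log2 difference of -0.24 missed the threshold (edgeR adjusted p = 0.0658; 5 of 20 alternatives called it, among them sequencing project as a covariate with adjusted p = 0.0422). In RefSeq the Cers2 gene overlaps Setdb1, which encodes a histone methyltransferase, and whether the counting used strand is not given in the sources used here. Setdb1 had stage means of 88.0, 131 and 100 CPM in the order undifferentiated, differentiated, dedifferentiated, so both genes were highest in differentiated cells and reads shared between them cannot be told apart. Ugt8, Degs1 and Sptlc2 overlap non-coding or pseudogene RefSeq entries that are not rows of the count table.

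The elongases rose on differentiation and fell back in part. Elovl1, which extends saturated acyl chains to very long ones, rose from 117, 111 and 111 CPM in undifferentiated to 347, 310 and 302 CPM in differentiated replicates and stood at 220, 171 and 182 CPM in dedifferentiated ones. No stages overlapped. The log2 change was 1.44 on differentiation (SE 0.11, edgeR adjusted p = 1.3e-06) and -0.73 on dedifferentiation (SE 0.11, edgeR adjusted p = 0.000316). Elovl6, which extends palmitate to stearate, went from 25.0, 24.4 and 34.2 CPM to 103, 115 and 126 CPM and back to 44.9, 41.5 and 44.6 CPM. Its stages did not overlap either, and dedifferentiated cells lay nearest to the undifferentiated ones. Its log2 change was 1.98 on differentiation (SE 0.12, edgeR adjusted p = 2.55e-07) and -1.38 on dedifferentiation (SE 0.12, edgeR adjusted p = 7.46e-06), the latter with 94.8% of all genes tested above it.

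Ugcg, which makes glucosylceramide from the same ceramide that Ugt8 uses, moved the other way. It held 51.2, 57.1 and 49.5 CPM in undifferentiated replicates, 21.3, 23.0 and 24.1 CPM in differentiated ones and 38.7, 43.4 and 44.0 CPM in dedifferentiated ones. The stages did not overlap, and differentiated cells were lowest. On differentiation it fell (log2 change -1.27, SE 0.10, edgeR adjusted p = 1.32e-06). On dedifferentiation it rose by 0.89 (SE 0.10, edgeR adjusted p = 3.84e-05) and stayed 0.37 below undifferentiated cells (log2 change -0.37, edgeR adjusted p = 0.0137).

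Dedifferentiated cells were compared with differentiated cells to follow withdrawal of db-cAMP. It came with more serum, forskolin and neuregulin, and their parts cannot be told apart. Cyclic AMP was not measured in the data used here, so this stage is not shown to be free of a cyclic AMP stimulus. Of the 9 members, 2 rose (Sptlc2 and Ugcg), 3 fell (Gal3st1, Elovl1 and Elovl6) and 4 did not pass the test (Ugt8, Fa2h, Cers2 and Degs1). Over all genes 46.4% were called, 23.2% in each direction, so the members were called at about the background share. The libraries of these stages did not overlap for 6 of 9 members and for 58.5% of all genes. The median log2 change was -0.09 over the members and -0.01 over all genes. Against undifferentiated cells, dedifferentiated cells had 7 members higher (Ugt8, Gal3st1, Fa2h, Cers2, Degs1, Elovl1 and Elovl6) and Ugcg lower, while Sptlc2 missed the threshold (log2 change 0.20, edgeR adjusted p = 0.0627). Over all genes 29.4% were called in that comparison, 16.1% higher and 13.3% lower. There was no overlap of libraries for 9 of 9 members, Sptlc2 included, and for 43.9% of all genes, and the median log2 change was 0.71 over the members and 0.02 over all genes. With the libraries of replicates 1 and 2 alone, which share a sequencing project, Cers2 (edgeR adjusted p = 0.0568) and Ugcg (edgeR adjusted p = 0.0696) lost their calls there.

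**Figure D2:**
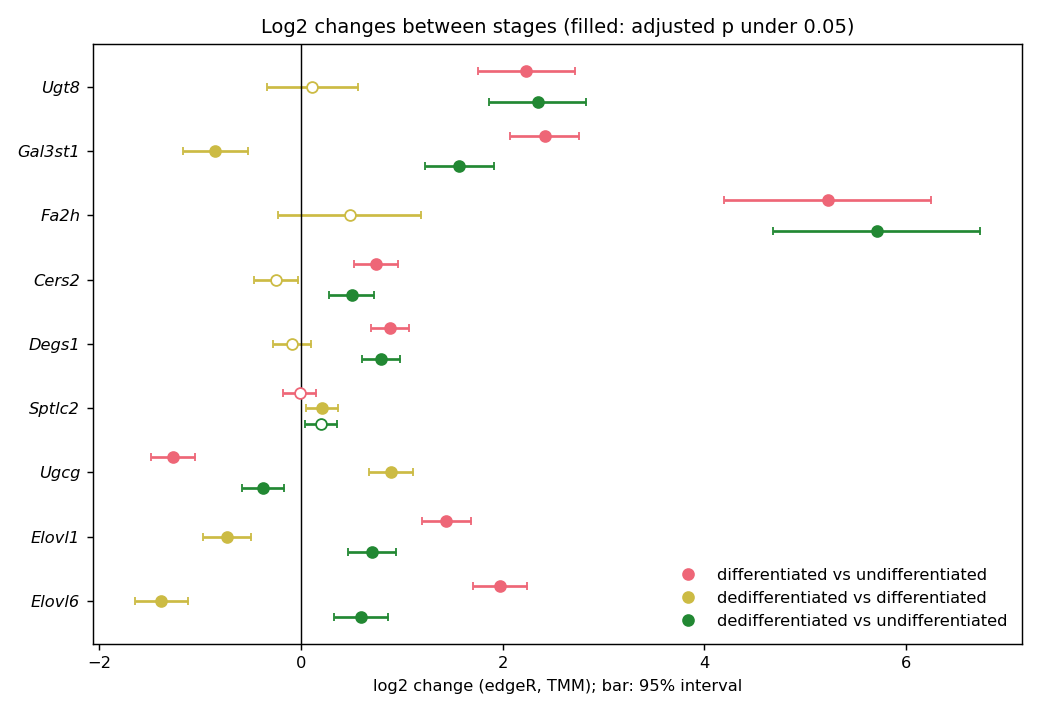
Log2 change of each gene between stages from the edgeR fit, with 95% intervals; filled points passed an adjusted p of 0.05, and colours give the 3 pairs of stages. Fa2h has the largest changes from undifferentiated cells and the widest intervals. For dedifferentiated against differentiated cells Elovl6 has the largest change, and the intervals of Ugt8, Fa2h and Degs1 span 0.

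As a description of how far each gene returned, the log2 difference of dedifferentiated from undifferentiated cells was set against that of differentiated from undifferentiated cells, which share their undifferentiated libraries. For Fa2h it was 109% of it, for Ugt8 105% and for Degs1 90.2%. For Cers2 it was 67.6%, for Gal3st1 65% and for Elovl1 49.1%. For Elovl6 it was 30.2% and for Ugcg 29.4%. The order therefore ran from Fa2h, Ugt8 and Degs1 to Elovl6 and Ugcg, nearest by this share to where they began. The difference from differentiated cells did not pass the test for Fa2h, Ugt8, Degs1 and Cers2. The part of forskolin, neuregulin and serum in these shares was not tested, so they do not show persistence after a cyclic AMP stimulus was removed.

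Ratios of 2 genes within a library do not depend on how libraries are scaled when nothing is added to the levels. Here 3 were computed as log2 of CPM plus 0.5, and they depend on the scaling only through the added 0.5. For Ugt8 over Ugcg, the galactose and glucose branches from ceramide, the log2 ratio was 0.12, 0.61 and 0.69 in undifferentiated, 4.35, 3.71 and 3.79 in differentiated and 3.67, 2.92 and 2.94 in dedifferentiated replicates 1 to 3. The first stage lay below both others, its mean of 0.47 ± 0.31 (SD, n = 3) being 11.1-fold below the differentiated and 6.52-fold below the dedifferentiated ratio. An exact permutation test of any difference among the 3 stages, over 280 splits, gave p = 0.00357, the smallest those splits allow. Adjusted over the 3 ratios, the exact permutation p was 0.0107.

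For Gal3st1 over Ugt8, which are successive steps to sulfatide, the log2 ratio was -1.58, -2.43 and -1.94 in undifferentiated, -1.89, -1.80 and -1.82 in differentiated and -2.94, -2.69 and -2.71 in dedifferentiated replicates. Dedifferentiated libraries were lowest and did not overlap the rest, with a mean 0.94 below that of differentiated cells (log2 difference -0.94). The first 2 stages overlapped, and their difference of 0.15 changed sign to -0.07 without undifferentiated replicate 2. The exact permutation p was 0.025 (adjusted 0.0375), and the adjusted exact permutation p was 0.0911 without any 1 of the 3 dedifferentiated libraries. For Elovl1 over Elovl6, the stage means were 2.02 ± 0.29, 1.48 ± 0.25 and 2.11 ± 0.15 (SD, n = 3) in the order undifferentiated, differentiated, dedifferentiated. Differentiated and undifferentiated libraries overlapped. The test of any difference among the stages missed the threshold (exact permutation p = 0.0643, also after adjustment). It passed without undifferentiated replicate 3 (adjusted exact permutation p = 0.0357).

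**Figure D3:**
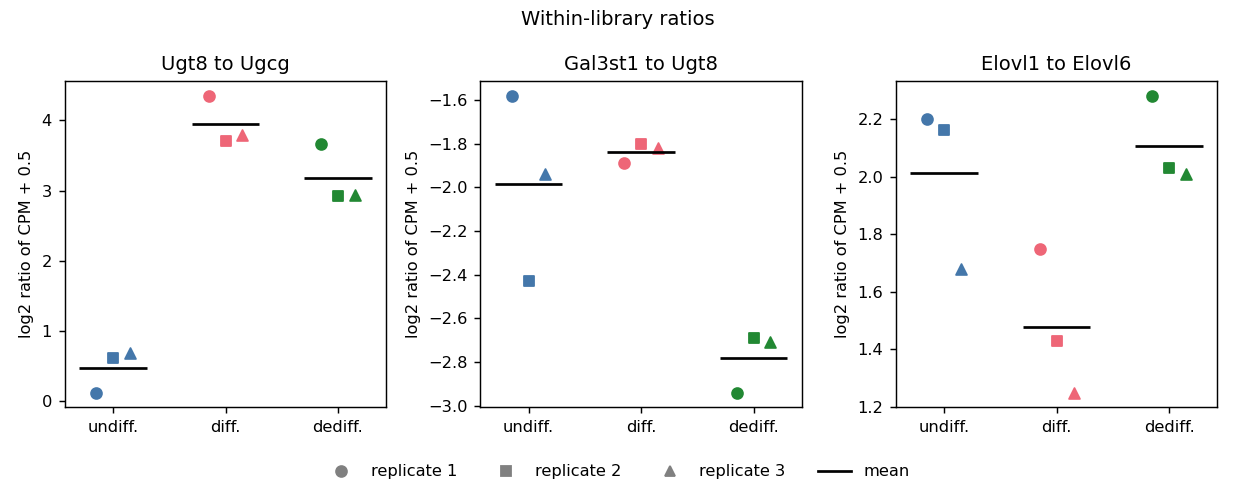
Log2 ratio of CPM + 0.5 of Ugt8 to Ugcg, Gal3st1 to Ugt8 and Elovl1 to Elovl6 in each library by stage; symbols are replicates 1 to 3 and the line is the stage mean, and the vertical axes differ and do not start at 0. The Ugt8 to Ugcg ratio is lowest in undifferentiated cells and the Gal3st1 to Ugt8 ratio is lowest in dedifferentiated cells.

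Around the 9 members, 66 other genes of sphingolipid metabolism were listed in 6 groups, of which 62 were in the table and 50 were tested. On differentiation 19 rose and 15 fell, 68% called against 59.6% of all genes. On dedifferentiation 13 rose and 11 fell (48% against 46.4%), and against undifferentiated cells dedifferentiated cells had 16 higher and 4 lower (40% against 29.4%). With replicates 1 and 2 alone the calls numbered 22 on differentiation and 11 for dedifferentiated against undifferentiated cells.

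Of 9 tested genes of ceramide backbone synthesis, 3 rose and 2 fell on differentiation, 55.6% called against 59.6% of all genes. Sptssa, a small subunit of serine palmitoyltransferase, rose from 33.5 ± 3.16 to 155 ± 15.7 CPM (SD, n = 3; edgeR adjusted p = 9.15e-08) and stood at 74.8 ± 8.06 CPM in dedifferentiated cells, still above undifferentiated ones (log2 change 1.11, edgeR adjusted p = 4.4e-05). Ormdl3, an inhibitor of that enzyme, fell (log2 change -0.73, edgeR adjusted p = 0.000369). Sptlc1, the partner subunit of Sptlc2, missed the threshold on differentiation (log2 change -0.23, edgeR adjusted p = 0.0506) and rose by 0.27 on dedifferentiation (edgeR adjusted p = 0.0357).

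Of 8 tested genes of fatty acid elongation, 5 rose and 1 fell on differentiation, and 3 fell and 1 rose on dedifferentiation (75% and 50% called, against 59.6% and 46.4% of all genes). Hacd3, a dehydratase of the elongation cycle, rose from 49.1 ± 0.762 to 176 ± 12.9 CPM on differentiation (SD, n = 3, edgeR adjusted p = 7.08e-08). It fell to 78.5 ± 5.28 CPM on dedifferentiation (SD, n = 3, edgeR adjusted p = 3.88e-06). That was still above undifferentiated cells (log2 change 0.63, edgeR adjusted p = 0.000464). Hacd1, a relative of it, went the other way at a low level, with stage means of 5.31, 2.86 and 6.21 CPM (edgeR adjusted p = 0.00424 and 0.00237 for the successive steps). Elovl7 had no count in any undifferentiated library and 129, 109 and 120 counts in differentiated ones, at least 29.3-fold higher against a floor of 3 counts per library, and was at least 18.2-fold higher in dedifferentiated cells.

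Of 7 tested genes of the glucosylceramide and ganglioside branch, which follows Ugcg, 1 rose and 3 fell on differentiation, and 3 rose and 1 fell on dedifferentiation (57.1% called at each step, against 59.6% and 46.4% of all genes). B4galt5, a lactosylceramide synthase that acts on the product of Ugcg, fell from 90.9 ± 14.4 to 16.2 ± 1.29 CPM on differentiation (SD, n = 3, edgeR adjusted p = 6.98e-08). It rose to 57.7 ± 3.27 CPM on dedifferentiation (SD, n = 3, edgeR adjusted p = 1.87e-06). B4galt5 thus moved with Ugcg at both steps, and it stayed below undifferentiated cells (log2 change -0.71, edgeR adjusted p = 0.00143). B4galt6, the other enzyme of that step, missed the threshold on differentiation (log2 change 0.26, edgeR adjusted p = 0.0631) and fell by 0.43 on dedifferentiation (edgeR adjusted p = 0.00945). B4galnt1 and St8sia5, which act further down the ganglioside path, were called higher on few counts: B4galnt1 had 0 to 3 counts in undifferentiated and 8 to 19 in differentiated libraries, and St8sia5 had 4 to 10 in differentiated and 22 to 30 in dedifferentiated libraries.

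Of 4 genes of the sphingomyelin branch, Sgms1, a sphingomyelin synthase, rose from 43.0 ± 6.06 to 301 ± 22.2 CPM on differentiation and stood at 105 ± 5.92 CPM in dedifferentiated cells (SD, n = 3; edgeR adjusted p = 9.55e-09 and 1.12e-06). Col4a3bp, the ceramide transfer protein that supplies it, fell by 0.68 on the log2 scale and rose again by 0.64 (edgeR adjusted p = 9.78e-05 and 0.000289). In all, 2 of the 4 rose and 1 fell on differentiation (75% called against 59.6% of all genes). Of 17 tested genes of sphingolipid breakdown, 4 rose and 8 fell on differentiation, and 7 rose and 1 fell on dedifferentiation. The shares called were 70.6% and 47.1%, against 59.6% and 46.4% of all genes. Asah1, acid ceramidase, rose by 0.98 on differentiation (edgeR adjusted p = 2.49e-05). Glb1, the lysosomal galactosidase, fell by 0.80 (edgeR adjusted p = 7.64e-06). Arsa, which removes the sulfate that Gal3st1 adds, fell by 0.69 on differentiation (edgeR adjusted p = 1.32e-05) and rose by 0.90 on dedifferentiation (edgeR adjusted p = 4.94e-06), opposite to Gal3st1 at both steps. Galc, which removes the galactose that Ugt8 adds, instead rose with Ugt8 on differentiation (log2 change 0.58, edgeR adjusted p = 0.00819), and its log2 difference on dedifferentiation was -0.18 (edgeR adjusted p = 0.362). Gm2a, an activator protein for ganglioside breakdown, fell by 0.32 on dedifferentiation (edgeR adjusted p = 0.0103).

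Of 5 tested genes of sphingosine phosphate metabolism, 4 rose and none fell on differentiation, and 3 fell and none rose on dedifferentiation (80% and 60% called, against 59.6% and 46.4% of all genes). Cerk, which phosphorylates ceramide, rose from 98.1 ± 3.64 to 795 ± 106 CPM and stood at 314 ± 5.55 CPM in dedifferentiated cells (SD, n = 3; edgeR adjusted p = 5.27e-09 and 2.53e-06).

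**Figure D4:**
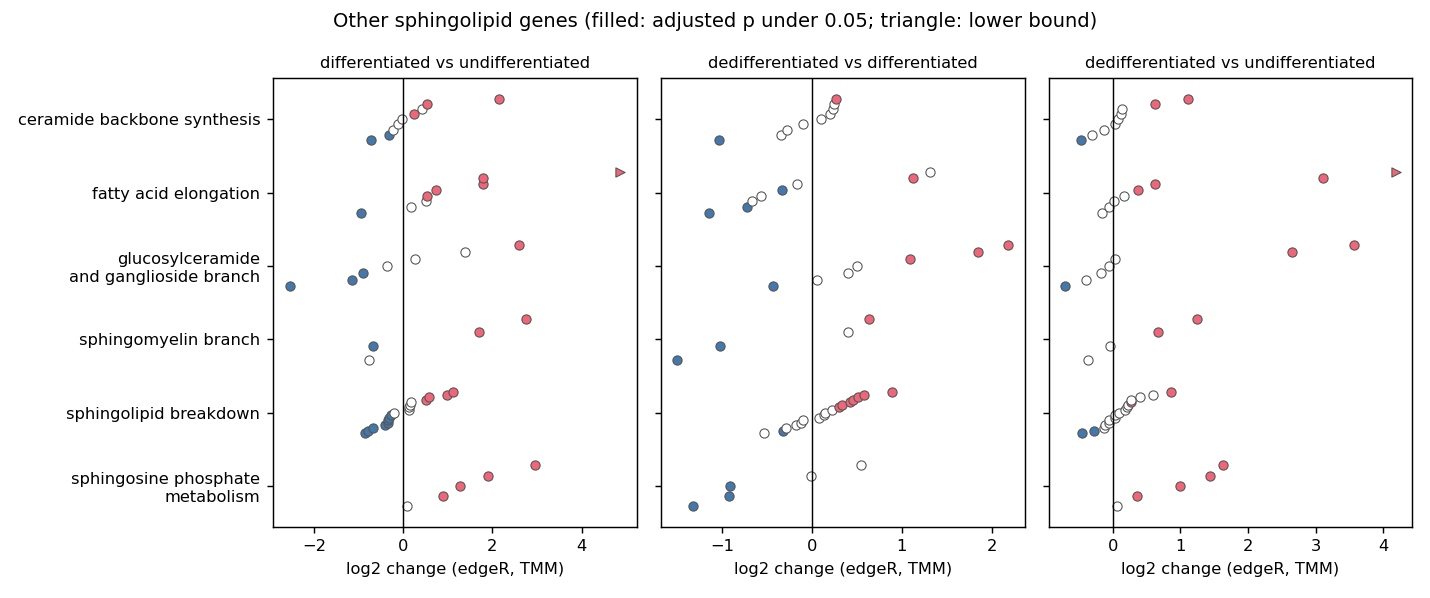
Log2 change of each of the 50 other tested sphingolipid genes by group for the 3 pairs of stages; each point is a gene, filled where its adjusted p was under 0.05 (red higher, blue lower), and the triangle is Elovl7, drawn at its lower bound. All called genes of sphingosine phosphate metabolism lie above 0 on differentiation and below 0 on dedifferentiation, and the breakdown genes have more fallen than risen members on differentiation.

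Across the 9 libraries, whose main difference is stage, log2 CPM of Ugt8 ran with that of Fa2h at r = 0.98 and of Degs1 at r = 0.98, and with Ugcg at r = -0.69. Ugcg and Elovl6 ran opposite at r = -0.99. These coefficients describe 9 points in 3 groups. The 3 genes most like Ugt8 of 10371 compared were Hspa2 (r = 0.994), Gpr146 and Mgll (both 0.992), and 196 genes exceeded 0.95. Those most like Fa2h were Sorcs1 (0.997), Il16 and Mag (both 0.995), Mag being a glycoprotein of myelin with stage means of 4.08, 342 and 294 CPM. Among the genes most like Gal3st1 were Magi1 (0.996) and Snx5 (0.995), with 396 genes above 0.95. Ugcg was most like Cbfb (0.998), Erp44 and Mxra8 (both 0.996), with 558 genes above 0.95, and Cbfb had stage means of 145, 56.7 and 108 CPM.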

How the data were processed

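Messenger RNA of 9 libraries was analysed; the vesicle miRNA and lncRNA tables were not used here. The deposited values are estimated counts per gene that the authors made with salmon, per the name of the table, from directional libraries of 10 ng of total RNA, per the labels' protocols. The build and annotation are not given in the sources used here. Whole numbers were tested, and rounding touched 1.15% of the values. Replicate numbers follow the sample titles, with which the column suffixes conflict.

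The quasi-likelihood test of edgeR 4.0.16 (R 4.3.3) was run over all 9 libraries, with no covariate, after filterByExpr (minimum count 10) and TMM, with Benjamini-Hochberg adjustment over 10372 genes. Intervals are 95% and came from the fit. Ratios of 2 genes were tested for any difference among the 3 stages by exact permutation (pseudocount 0.5 CPM), and no pair of stages was tested alone. The test was also run on simulated counts for differentiated against undifferentiated cells over the 10372 genes. It called 49.2% of 1.5-fold, 88.4% of 2-fold and 99.6% of 4-fold rises and 81.6% of falls to 0.5-fold. Of its calls 4.67% were false. Each of 5 draws changed 200 genes and held no replicate or sequencing project difference, while 59.6% of genes were called in the data. These shares therefore need not hold for the data. Precision is limited by counting at the floor of 3 counts and by 3 libraries per stage.

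Named were all 9 members; per pathway list and contrast, the called gene of smallest adjusted p in each direction; the 3 genes most correlated with Ugt8, Gal3st1, Fa2h and Ugcg; and markers. One gene that this rule takes is not reported here. Setdb1, for its overlap with Cers2, and Galc were named after their values were seen. The members and lists were chosen with earlier results of these data known, and the 2 motifs in capitals were picked from the 7 after the sequences were seen. Alternatives were DESeq2 1.42.0, its size factors, library size alone, other filters, pseudocounts and covariates, and left-out libraries.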

Additional observations from a re-analysis of the deposited data

How the results depend on the processing

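The count of members called was 8 on differentiation and 8 for dedifferentiated against undifferentiated cells in every fit without 1 library or without replicate 1, and 4 to 6 for dedifferentiated against differentiated cells. Leaving out replicate 1 of every stage was chosen after seeing the data. For the other pathway genes these fits called 29 to 37, 16 to 21 and 21 to 31 in the same order. With sequencing project 9987 only they were 22 and 11 in the first 2 comparisons, against 34 and 20 with all libraries, with fewer libraries in that fit. Fa2h had too few counts for the filter of 10 in every library and has no value there.

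Same-numbered libraries of different stages deviated together from their stage means by r = 0.028 to 0.304 (mean 0.175). The mean for other pairs was -0.0837, but deviations within a stage cancel, so these means are not independent. For 7 of 9 libraries the closest were those of their own number, a hint of pairing. Replicate 3 of every stage also came from another sequencing project, so pairing and project cannot be told apart there. The labels name no shared culture and 7 of 9 pairs, not all, exceeded 0.1, so the block was kept as an alternative. With the replicate block the members called were 8, 6 and 8 on differentiation, on dedifferentiation and against undifferentiated cells, and Cers2 passed on dedifferentiation (edgeR adjusted p = 0.0171). The block left the log2 differences between differentiated and undifferentiated cells at 3.48 for Ugt8 to Ugcg and 0.152 for Gal3st1 to Ugt8. The exact permutation p for any difference among the stages, adjusted over the 3 ratios, became 0.0833 with the block. Its 36 splits allow no p under 0.0278. Leaving out each library, the log2 difference between differentiated and undifferentiated cells ran from 3.28 to 3.60 for Ugt8 to Ugcg. For Gal3st1 to Ugt8 it ran from -0.072 to 0.353, the former without undifferentiated replicate 2. For Elovl1 to Elovl6 it ran from -0.706 to -0.428 (main value -0.54).

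Of 537 values for single members under an alternative, 511 kept direction and call, 11 lost and 7 gained a call and 8 changed sign. The sign changed only where no call was made: Sptlc2 on differentiation became 0.052 by library size alone, 0.005 with at least 10 counts in every library, 0.007 without undifferentiated replicate 1 and 0.03 without differentiated replicate 2 (range without 1 library -0.053 to 0.03); Ugt8 on dedifferentiation became -0.003 without differentiated replicate 2 and -0.094 without dedifferentiated replicate 1 (range -0.094 to 0.297); and Degs1 became 0.002 without differentiated replicate 1 and without replicate 1 of every stage (range -0.144 to 0.002). The causes were not tested. Library size alone moved the median of all genes by at most 0.061 (log2) and the share of higher calls from 53.2% to 58.5% on differentiation. Against undifferentiated cells that share was 54.7%, 62.6% by library size alone and 48.9% by DESeq2.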
